A study of Mus musculus with 25 samples.

Results

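The data described here are the right atrial (RA) libraries at postnatal day 14 (P14) set against those at postnatal day 4 (P4), which follow the working atrial muscle of the mouse through its early postnatal maturation. They are 6 of the 25 libraries of the series, chosen by tissue and stage alone, with 3 libraries at P14 and 3 at P4, and all genes were considered. Of 20870 genes listed, 17568 reached 1 CPM in at least 3 libraries and were tested. CPM here is the deposited normalised signal divided by 1 constant for all libraries, so that library totals were not made equal. The P14 and P4 mice carried the same Hcn4-GFP reporter genotype on a mixed strain background, and neither group had been given a drug or operated on as far as the labels say. The atrial wall was outlined by eye on frozen sections 8 microns thick and cut out with a laser, and the sections were stained for the pacemaker channel Hcn4 and for DNA afterwards as a check of the cut. Total RNA of the captured tissue was amplified by a single primer isothermal method and sequenced, and the labels give no strand setting, so that overlapping genes cannot be told apart. Other libraries of the series used below are the RA at embryonic day 14.5 (E14.5) and the sinoatrial node (SAN), the pacemaker region, at the same stages and from mice of the same genotype. Which animals gave which library is not stated, and p-values measure the spread between libraries. In such bulk tissue, fewer cells of a type and less RNA per cell cannot be told apart.

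Working atrial muscle contracts before the ventricles fill, conducts the impulse from the node, and secretes the natriuretic peptides. In the days after birth, rodent heart muscle cells leave the cell cycle, turn from glucose towards fatty acids as fuel, exchange fetal for adult isoforms of sarcomere proteins, and lose the growth programme of the fetus, in which imprinted genes and insulin-like growth factor 2 take part. Much of what is known of this maturation comes from ventricle.

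The recovered reads per RA library at P14 and P4 numbered 5101711 to 11128715, and the shallowest was P4 replicate 3, in which 15657 genes were detected. The tissue label was checked against markers of the regions next to it. Nppa, the gene of atrial natriuretic peptide, had 1228 ± 328 CPM in RA at P14 and 925 ± 411 CPM in RA at P4 (SD, n = 3 each), against 3.22 ± 1.35 and 0.887 ± 0.873 CPM in SAN at those stages. Hcn4 was at 8.50 ± 6.43 CPM in RA at P14 and 15.5 ± 2.35 CPM at P4, against 1235 ± 83.5 and 2580.4 ± 1021 CPM in SAN. The ventricular light chain gene Myl2 had 5.40, 1.07 and 0.148 CPM at P14, against 0.509, 9.22 and 24.5 CPM at P4. Xist, which is transcribed from the inactive X chromosome, had 3154, 2.23 and 3526 CPM at P14, against 4544, 4.92 and 0 CPM at P4, so that 2 libraries were high in Xist at P14 and 1 at P4. With an additional term for these libraries the fit called 224 genes higher and 930 lower, in place of the 236 and 952 given next.

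Between P4 and P14 the right atrium lost transcripts of dividing cells and of the fetal growth programme, with falls in 29 of 41 cell cycle genes and in 16 of 26 fetal and imprinted growth genes tested (5.42% of all genes fell). Both cardiac myosin heavy chain genes, Myh6 and Myh7, rose, though reads may have been assigned to either of them. Of 21 genes of the tricarboxylic acid cycle 6 rose as well (1.34% of all genes did). Hamp, which was near 0 at P4, reached 112 to 278 CPM at P14. With limma, 1188 of 17568 genes (6.76%) passed a Benjamini-Hochberg adjusted p of 0.05, of which 236 (1.34%) were higher at P14 and 952 (5.42%) were lower. The scale of the values bears on this split. On the deposited scale the median log2 difference of all genes tested was −0.24. When the libraries were set to equal upper quartiles this median was −0.02, and 585 genes (3.33%) were called, 322 higher (1.83%) and 263 lower (1.5%). On the recovered reads edgeR called 3.08% of genes, 1.76% higher and 1.31% lower, and DESeq2 called 6.19%, 3.41% higher and 2.78% lower. A total of 233 higher and 263 lower genes were called on both scales, and 185 and 211 of these were also called by edgeR on the recovered reads. In the lists below, counts with equal upper quartiles therefore stand beside those on the deposited scale, and a median is to be read against −0.24. The counts of a list are to be read against the shares of all genes given above for each scale. On the deposited scale the 3 P14 and 3 P4 libraries did not overlap for 949 genes higher at P14 (5.4%) and 3807 lower (21.7%). A lack of overlap in a gene named below is to be read against these shares. Leaving out 1 of the 6 libraries lowered the count to between 630 (without P14 replicate 2) and 899 (without P4 replicate 1). The calls that held in all 6 such fits were 78 higher and 281 lower.

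**Figure D1:**
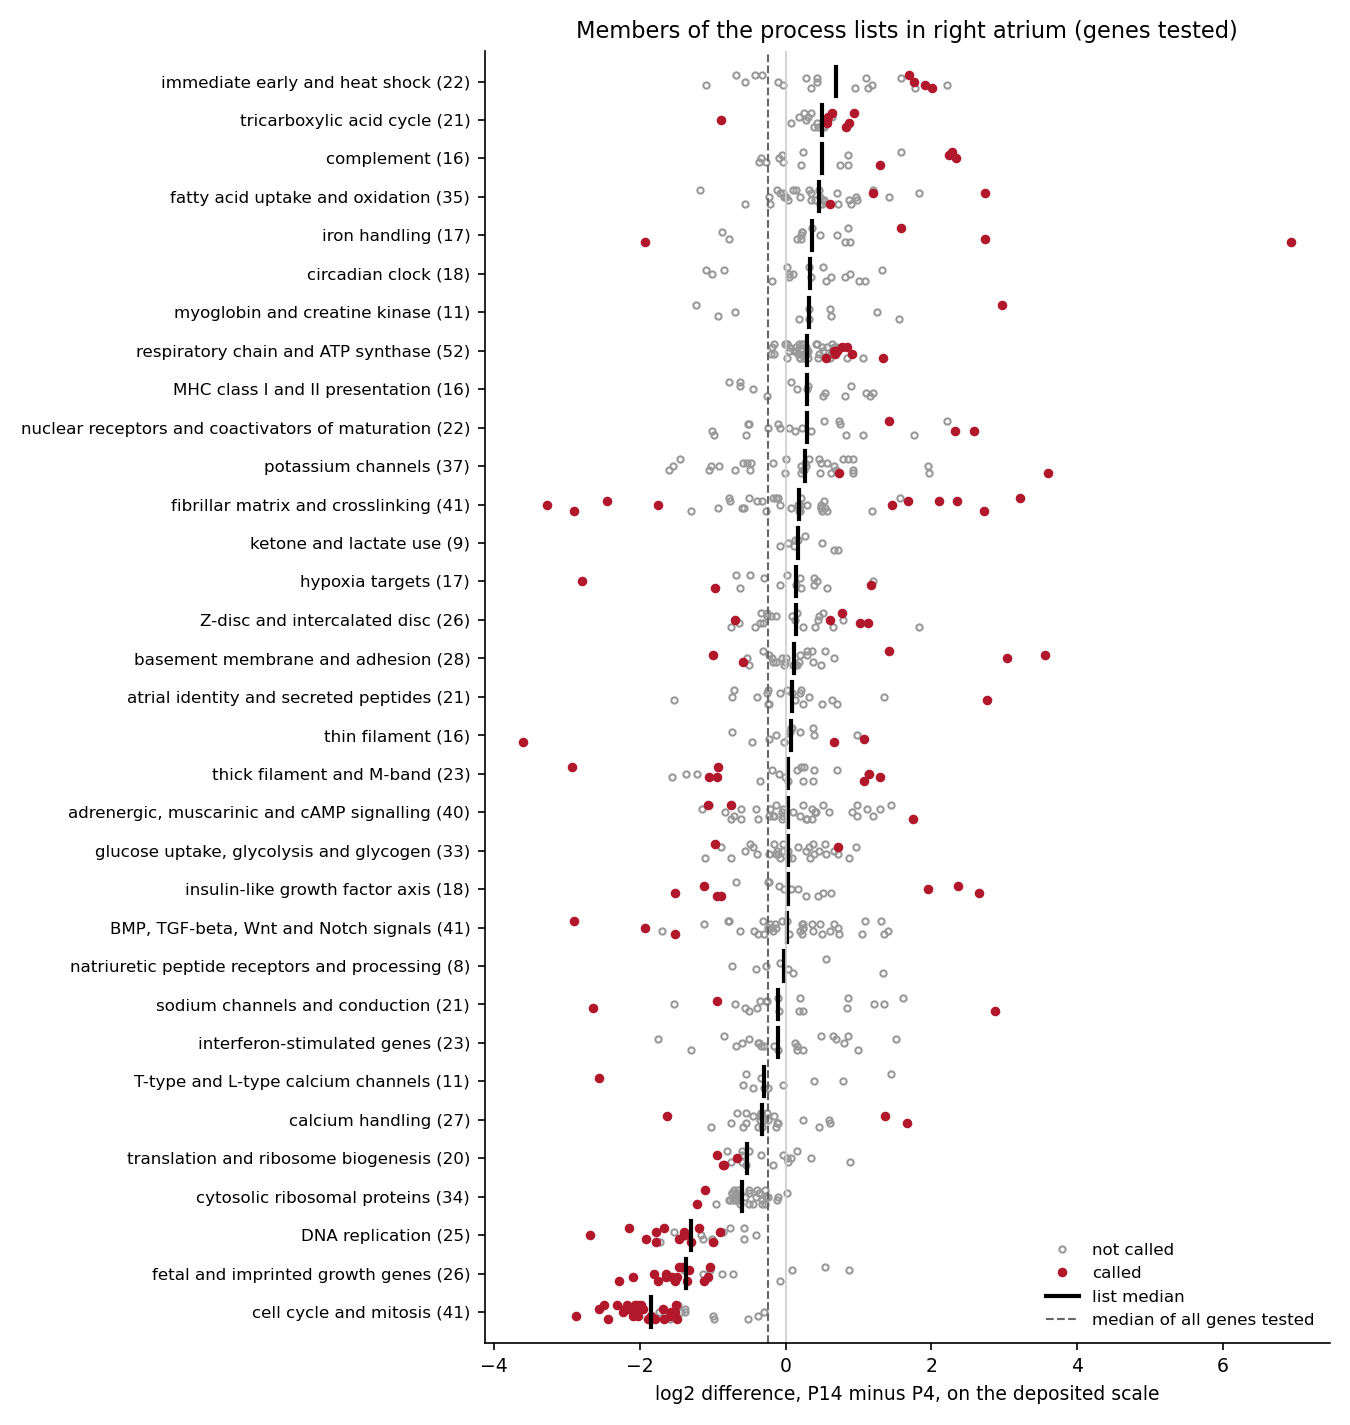
Differences of the members of 33 lists of genes with a common function, P14 minus P4 in right atrium, in log2 units on the deposited scale, with 1 point per gene tested. Filled points passed the test, black bars are list medians, the dashed line is the median of all genes (−0.24), and the lists of cell cycle, DNA replication and fetal growth genes lie farthest to the left.

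The list with the most falls was that of cell division. Of 41 cell cycle and mitosis genes tested, 29 fell on the deposited scale (5.42% of all genes did) and 21 fell with equal upper quartiles (1.5% of all genes), and the median was −1.84 against −0.24. All 41 lay below the median of all genes, with differences between −2.87 and −0.30. Mki67, the gene of the proliferation antigen Ki-67, had 129.7, 147 and 168 CPM at P14, against 525, 533 and 573 CPM at P4, a difference of −1.88 ± 0.26 (SE, adjusted p = 0.000197). The P14 and P4 libraries did not overlap and lay well apart. Ube2c, which encodes the ubiquitin-conjugating enzyme of the anaphase-promoting complex, had 11.0, 5.35 and 10.04 CPM at P14, against 53.4, 66.3 and 46.1 CPM at P4, a difference of −2.56 ± 0.33 (adjusted p = 8.33e-05). Ccnb2 (cyclin B2) had 5.26, 4.54 and 5.76 CPM at P14, against 31.3, 34.0 and 35.5 CPM at P4, a difference of −2.49 ± 0.39 (adjusted p = 0.000565). In both genes the P14 and P4 libraries lay far apart and did not overlap. Cenpf, of the kinetochore, differed by −2.17 ± 0.33 (adjusted p = 0.000497), and Top2a, the topoisomerase of replicating cells, by −1.84 ± 0.28 (adjusted p = 0.000543). The calls of these 5 genes held on both scales and without any 1 library.

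The levels of the list at the 3 stages stood in order of age. The average of the 41 genes on the log2(CPM + 1) scale, less the average of all genes tested, was 2.06 to 2.61 in the E14.5 libraries, 1.35 to 1.499 in those at P4, and −0.20 to −0.02 in those at P14. Kif14, a mitotic kinesin outside that list, was among the 12 largest falls of the comparison and had 1.02, 0.713 and 5.46 CPM at P14, against 25.0, 20.2 and 22.2 CPM at P4 (−3.05 ± 0.49, adjusted p = 0.000701).

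DNA replication genes were lower too, though fewer passed the test on the second scale. Of 25 genes, 14 fell on the deposited scale (5.42% of all genes) and 3 with equal upper quartiles (1.5% of all genes). The list median was −1.30. Rrm1, a subunit of ribonucleotide reductase, had 18.4, 32.3 and 10.9 CPM at P14, against 56.3, 69.4 and 76.6 CPM at P4 (−1.78 ± 0.34, adjusted p = 0.00314). Uhrf1, which recognises newly replicated DNA that is methylated on one strand, had 7.01, 11.6 and 1.92 CPM at P14, against 45.9, 31.7 and 49.5 CPM at P4 (−2.68 ± 0.55, adjusted p = 0.00481). Rrm2, the partner subunit of Rrm1, had 9.64, 29.9 and 5.32 CPM at P14, against 53.4, 60.9 and 53.4 CPM at P4 (−2.15 ± 0.50, adjusted p = 0.0126). The call was lost without P14 replicate 3 (adjusted p = 0.0719). Those 3 genes were the ones called on both scales, and edgeR did not call Rrm2 (adjusted p = 0.157). The clamp gene Pcna differed by −1.39 ± 0.28 on the deposited scale (adjusted p = 0.00387) and was not called with equal upper quartiles (adjusted p = 0.0502). When 1 library was left out, the count of 14 became 4 without P4 replicate 2, 8 without P4 replicate 1, 9 without P14 replicate 2 and 7 without P14 replicate 3.

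**Figure D2:**
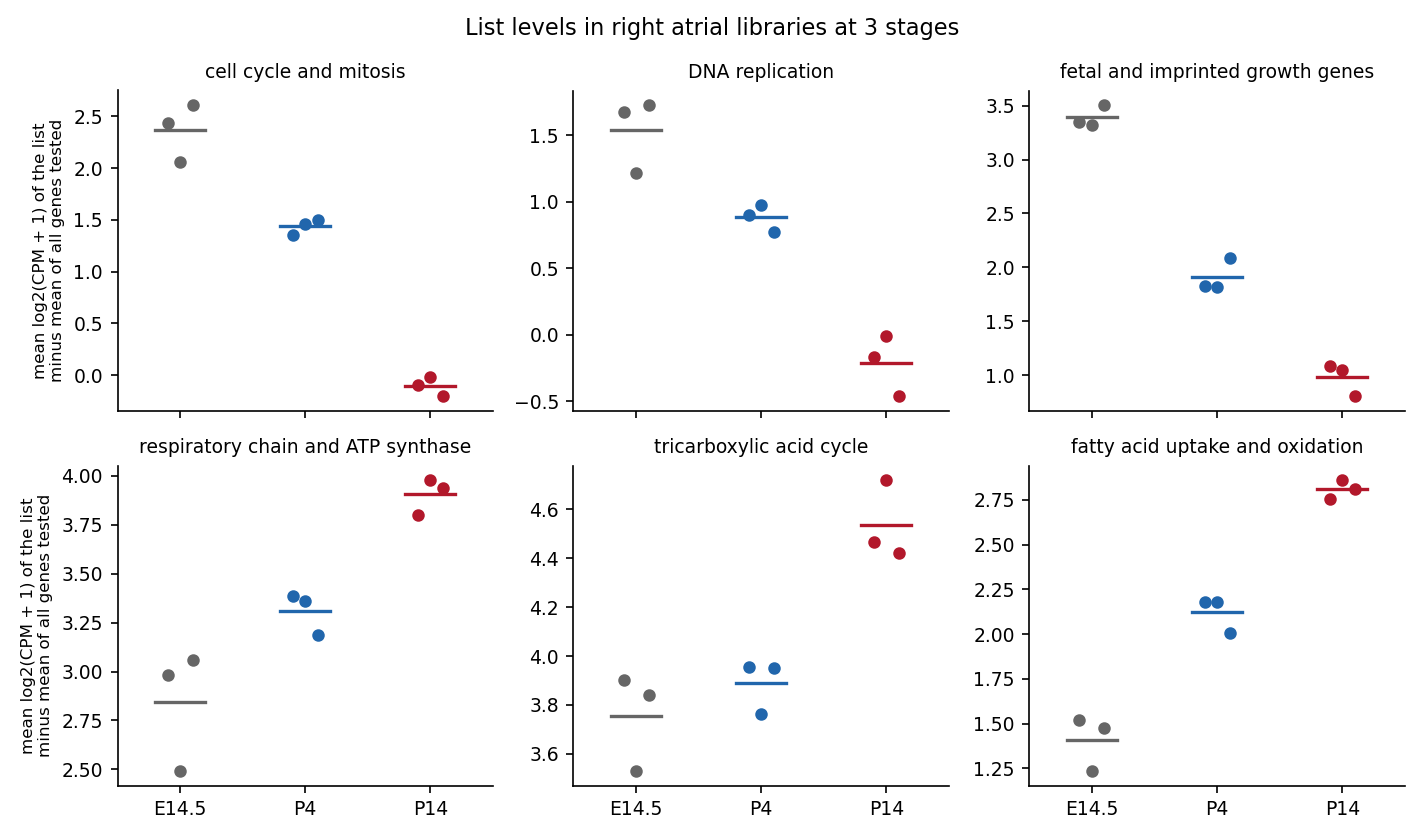
Mean log2(CPM + 1) of 6 lists minus the mean of all genes tested, in each right atrial library at E14.5, P4 and P14, with a bar at the mean of 3 libraries. Cell cycle genes stand at −0.20 to −0.02 at P14 and at 1.35 to 1.499 at P4, while tricarboxylic acid cycle genes stand at 4.42 to 4.72 at P14 and at 3.76 to 3.96 at P4.

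Promoters of 3 of these genes, each holding both motifs counted below, are shown as examples. The 250 bases before the transcription start were taken from RefSeq on build GRCm38.p6, a table in which 10737 of the 17568 genes tested (61.1%) had an entry. Late cell cycle promoters are known for the CCAAT box, bound by the factor NF-Y, and for the element CHR, bound by the DREAM and MuvB complexes. CCAAT or its reverse complement ATTGG occurred in 25 of the 32 cell cycle genes with a promoter in the table (78.1%) and in 10133 of all 27025 genes (37.5%). TTTGAA or TTCAAA, the core of the CHR, occurred in 12 of 32 (37.5%), against 4934 of 27025 (18.3%). Both were found in 12 of 32 (37.5%), against 1984 of 27025 (7.3%). GGCGCC, counted for the hepcidin genes below, was also commoner in the cell cycle list, at 8 of 32 (25.0%) against 2931 of 27025 (10.8%). Among DNA replication genes TTTGAA or TTCAAA occurred in 4 of 23 (17.4%). The 27025 genes were not limited to those tested, and base composition was not matched. A match is a description of these letters and not evidence of binding. Capitals mark both motifs on either strand, and in Ube2c a CCAAT and an ATTGG overlap. The promoters are at chr2:164769679-164769928 on the plus strand (Ube2c), chr9:70421555-70421804 on the minus strand (Ccnb2) and chr7:135716380-135716629 on the minus strand (Mki67), each written 5′ to 3′ towards the start.
Ube2c: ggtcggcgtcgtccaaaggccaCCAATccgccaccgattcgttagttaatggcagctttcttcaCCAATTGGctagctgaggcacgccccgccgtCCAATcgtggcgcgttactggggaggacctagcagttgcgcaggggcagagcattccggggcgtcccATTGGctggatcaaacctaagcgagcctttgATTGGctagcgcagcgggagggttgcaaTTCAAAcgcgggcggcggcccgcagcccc
Ccnb2: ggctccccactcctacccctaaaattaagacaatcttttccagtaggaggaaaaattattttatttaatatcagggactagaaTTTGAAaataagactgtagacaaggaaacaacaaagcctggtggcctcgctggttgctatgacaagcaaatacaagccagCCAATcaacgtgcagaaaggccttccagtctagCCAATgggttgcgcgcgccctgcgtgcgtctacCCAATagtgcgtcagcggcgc
Mki67: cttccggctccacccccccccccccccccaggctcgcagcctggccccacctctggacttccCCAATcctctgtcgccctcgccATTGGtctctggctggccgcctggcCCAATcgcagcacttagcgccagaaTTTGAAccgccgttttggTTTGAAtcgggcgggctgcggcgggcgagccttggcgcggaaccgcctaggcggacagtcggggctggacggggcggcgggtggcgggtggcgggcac

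Relative to the start, the Ccnb2 window holds CCAAT at 87, 54 and 21 bases before it and TTTGAA at 167 bases before it. In Mki67 the CCAAT and ATTGG matches begin 188, 166 and 141 bases before the start, and TTTGAA begins 116 and 98 bases before it. The Ube2c window holds TTCAAA at 29 bases before the start and 6 matches to CCAAT or ATTGG.

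Fetal and imprinted growth genes fell as well. Of 26 tested, 16 fell on the deposited scale (5.42% of all genes) and 9 with equal upper quartiles (1.5% of all genes). The list median was −1.37. Igf2, the paternally expressed fetal growth factor, had 2275, 1403 and 2372 CPM at P14, against 7025, 5909 and 4306 CPM at P4 (−1.52 ± 0.23, adjusted p = 0.000392). H19, the non-coding RNA of the same imprinted locus, had 600.03, 578 and 508 CPM at P14, against 2390.2, 1532 and 1463 CPM at P4 (−1.64 ± 0.27, adjusted p = 0.000882). Igf2r, the receptor that clears IGF2, differed by −1.12 ± 0.15 (adjusted p = 0.000138). In all 3 genes each P14 library lay below each P4 library, as was so for 21.7% of all genes. Grb10, an imprinted adaptor that dampens insulin and IGF receptor signals, had 211, 181 and 162 CPM at P14, against 578, 440.2 and 524 CPM at P4 (−1.47 ± 0.19, adjusted p = 7.35e-05). Sox4, a transcription factor gene of embryonic tissue, had 18.5, 15.4 and 17.9 CPM at P14, against 76.8, 88.0 and 67.1 CPM at P4 (−2.09 ± 0.35, adjusted p = 0.00106). The calls of these 5 genes held on both scales and without any 1 library. The list averaged 0.81 to 1.09 in the P14 libraries and 1.82 to 2.08 in the P4 libraries, as log2(CPM + 1) above the mean of all genes tested, after 3.32 to 3.51 at E14.5. Without P14 replicate 2 the count of 16 became 10.

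The wider insulin-like growth factor axis moved in both directions. Of 18 genes tested, 3 rose and 4 fell on the deposited scale (1.34% and 5.42% of all genes). With equal upper quartiles 3 and 2 did (1.83% and 1.5% of all genes). Igfbp7, a secreted IGF-binding protein of vessels, had 382, 778 and 427 CPM at P14, against 96.2, 161 and 137 CPM at P4 (1.96 ± 0.42, adjusted p = 0.00734). Igfbp3 had 122, 169 and 195 CPM at P14, against 16.4, 35.5 and 46.5 CPM at P4 (2.36 ± 0.56, adjusted p = 0.0138). The third rise was that of Igfbp6, with 10.5, 0.624 and 19.8 CPM at P14, against 0.102, 0.419 and 0 CPM at P4 (2.65 ± 0.76, adjusted p = 0.0397). Igfbp5 had 1338, 1138 and 1141 CPM at P14, against 3440.5, 1817 and 1953 CPM at P4 (−0.94 ± 0.23, adjusted p = 0.0149). Igf1, which takes over as growth factor after birth, differed by −0.88 ± 0.23 (adjusted p = 0.0258), and with equal upper quartiles neither Igfbp5 (adjusted p = 0.176) nor Igf1 (adjusted p = 0.228) was called. The Igfbp7 call was lost without P14 replicate 2 (adjusted p = 0.0524), that of Igfbp3 without P14 replicate 2 or 3 or without P4 replicate 1 (adjusted p from 0.0505 to 0.0635), that of Igfbp5 without P14 replicate 2 or 3 or without P4 replicate 1 (adjusted p from 0.0524 to 0.082), that of Igfbp6 without P14 replicate 1 or 3 or without P4 replicate 1, 2 or 3 (adjusted p from 0.0766 to 0.176), and that of Igf1 without P14 replicate 1, 2 or 3 or without P4 replicate 1 or 3 (adjusted p from 0.0549 to 0.0944).

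The rises called among genes of the mitochondrial energy supply were small, and those named here were under 1 log2 unit. Of 21 tricarboxylic acid cycle genes, 6 rose and 1 fell on the deposited scale (1.34% and 5.42% of all genes), 11 rose with equal upper quartiles (1.83% of all genes), and the median was 0.49. Ogdh, a subunit of 2-oxoglutarate dehydrogenase, had 896, 808 and 809 CPM at P14, against 554, 424 and 414 CPM at P4 (0.86 ± 0.15, adjusted p = 0.00183). Got2, the mitochondrial aspartate aminotransferase, had 348, 298 and 306 CPM at P14, against 207, 175 and 156 CPM at P4 (0.83 ± 0.17, adjusted p = 0.00603). Both calls held without any 1 library. Idh3b, of the NAD-linked isocitrate dehydrogenase, had 214, 431 and 245 CPM at P14, against 176, 143 and 128 CPM at P4 (0.93 ± 0.21, adjusted p = 0.0116). Its call was lost without P14 replicate 2 (adjusted p = 0.0732) and without P4 replicate 3 (adjusted p = 0.0528). Idh2, the NADP-linked enzyme, moved the other way, with 199, 243 and 211 CPM at P14, against 455, 431 and 329.7 CPM at P4 (−0.89 ± 0.18, adjusted p = 0.00541), and was not called with equal upper quartiles (adjusted p = 0.152). The count of 6 became 2 without P4 replicate 3 and 3 without P4 replicate 2 or P14 replicate 2. The list averaged 4.42 to 4.72 in the P14 libraries and 3.76 to 3.96 in the P4 libraries, as log2(CPM + 1) above the mean of all genes tested.

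The respiratory chain and ATP synthase list had 52 genes tested, all 52 of which lay above the median of all genes. Of these, 9 rose on the deposited scale (1.34% of all genes), 16 with equal upper quartiles (1.83%) and 18 in edgeR (1.76%), and the median was 0.30. Cox7b, of cytochrome c oxidase, had 440.0, 435 and 496 CPM at P14, against 324, 304 and 223 CPM at P4 (0.70 ± 0.17, adjusted p = 0.0172). Atp5g1, which encodes subunit c of the ATP synthase, had 755, 1045 and 899 CPM at P14, against 676, 552 and 282 CPM at P4 (0.92 ± 0.24, adjusted p = 0.0266). Uqcrc1, a core subunit of complex III, had 204, 223 and 237 CPM at P14, against 150.4, 123 and 136 CPM at P4 (0.70 ± 0.18, adjusted p = 0.0243). In each of the 3 genes every P14 library lay above every P4 library, as was so for 5.4% of all genes. The Cox7b call was lost without P14 replicate 3 (adjusted p = 0.068) and without P4 replicate 3 (adjusted p = 0.0892), that of Atp5g1 without P14 replicate 2 or 3 or without P4 replicate 3 (adjusted p from 0.068 to 0.149) and that of Uqcrc1 without P14 replicate 2 or 3 or without P4 replicate 2 or 3 (adjusted p from 0.0592 to 0.0913). In place of the 9 genes, 12 were called without P4 replicate 1, 7 without P14 replicate 1, 3 without P4 replicate 2, 1 without P14 replicate 2 or replicate 3, and 0 without P4 replicate 3, where 3375 genes of the whole table had an unadjusted p under 0.05.

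Fatty acid genes had a median of 0.46, with 33 of 35 above the median of all genes. On the deposited scale 3 rose (1.34% of all genes) and with equal upper quartiles 7 did (1.83% of all genes). Pnpla2, the adipose triglyceride lipase, had 119, 118 and 114 CPM at P14, against 59.9, 57.7 and 36.8 CPM at P4 (1.201 ± 0.23, adjusted p = 0.00309). Ucp3, a mitochondrial carrier of muscle, had 3.50, 16.9 and 7.09 CPM at P14, against 0.203, 0.838 and 0 CPM at P4 (2.74 ± 0.49, adjusted p = 0.00173; edgeR adjusted p = 0.0659). Cd36, which takes up fatty acids at the cell surface, had 442, 335 and 512 CPM at P14, against 287, 304 and 247 CPM at P4 (0.60 ± 0.17, adjusted p = 0.0340). This call was lost without P14 replicate 1 or 3 or without P4 replicate 1, 2 or 3 (adjusted p from 0.053 to 0.149). Among 33 genes of glucose uptake, glycolysis and glycogen 1 rose and 1 fell on the deposited scale (1.34% and 5.42% of all genes). With equal upper quartiles 3 rose (1.83% of all genes), and the list median was 0.03. Pygb, a glycogen phosphorylase (0.72 ± 0.19, adjusted p = 0.0280), rose while Pdk1, a kinase that restrains pyruvate dehydrogenase (−0.96 ± 0.28, adjusted p = 0.0397), fell. The Pygb call was lost without P14 replicate 1, 2 or 3 or without P4 replicate 3 (adjusted p from 0.0596 to 0.143). The Pdk1 call was lost without P14 replicate 1 or 3 or without P4 replicate 1 or 3 (adjusted p from 0.0924 to 0.134) and with equal upper quartiles (adjusted p = 0.208). Myoglobin, the oxygen store of muscle, is encoded by Mb, which had 1417, 1596 and 1812 CPM at P14, against 616, 757 and 347 CPM at P4 (1.55 ± 0.69) and did not pass the test (adjusted p = 0.184), although its P14 and P4 libraries did not overlap. Mb had 8.98 ± 1.597 CPM in RA at E14.5. Its SE comes from the spread over all 18 libraries of both tissues. In SAN, Mb had 121, 455 and 159 CPM at P14, against 11.9, 2.91 and 16.4 CPM at P4. Ckmt2, the mitochondrial creatine kinase of the same list of 11 genes, had 88.3, 171 and 63.6 CPM at P14, against 24.1, 6.81 and 9.47 CPM at P4 (2.97 ± 0.76, adjusted p = 0.0222). The call was lost without P14 replicate 1 or 2 or without P4 replicate 2 or 3 (adjusted p from 0.0538 to 0.105). Neither edgeR (adjusted p = 0.0845) nor DESeq2 (adjusted p = 0.0860) called Ckmt2.

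Among contractile genes a fetal troponin isoform fell and both cardiac myosin heavy chains rose. Tnni1, which encodes the slow skeletal troponin I of the fetal heart, had 29.8, 40.7 and 26.1 CPM at P14, against 434, 495 and 286 CPM at P4, a difference of −3.598 ± 0.22 (adjusted p = 1.75e-09). Every P14 library stood below every P4 library by a wide margin, and E14.5 averaged 758 ± 137 CPM. The adult isoform gene Tnni3 had 1.90, 0.713 and 1.18 CPM at P14, against 2.14, 4.61 and 0 CPM at P4, values close to 0 in this table at both ages. Since Tnni3 is known as an abundant transcript of the heart, these values are not read as its absence, and an exchange of the isoforms could not be followed. Myh6, the alpha myosin heavy chain of atrium, had 21145, 21933 and 18154 CPM at P14, against 10573, 9105 and 9242 CPM at P4 (1.08 ± 0.17, adjusted p = 0.000631). Myh7, the beta chain, rose as well, with 3394, 3251 and 3072 CPM at P14, against 1783, 1247 and 1034 CPM at P4 (1.29 ± 0.19, adjusted p = 0.000392), and both calls held without any 1 library. In RA at E14.5 Myh6 averaged 9813 CPM and Myh7 1405 CPM. Reads of such related genes may have been assigned to either, and this was not tested. Myh8, the perinatal myosin heavy chain of skeletal muscle, had 5.84, 2.41 and 3.40 CPM at P14, against 59.3, 20.1 and 34.6 CPM at P4 (−2.93 ± 0.57, adjusted p = 0.00337).

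Other sarcomere genes were called in both directions. Of 16 thin filament genes 2 rose and 1 fell on either scale. Of 23 thick filament and M-band genes 3 rose and 4 fell on the deposited scale and 4 and 1 did with equal upper quartiles. Of all genes, 1.34% rose and 5.42% fell on the deposited scale, and 1.83% and 1.5% did with equal upper quartiles. Actc1 (cardiac alpha-actin) had 12277, 9939 and 12910.0 CPM at P14, against 8138, 7338 and 6726 CPM at P4 (0.66 ± 0.16, adjusted p = 0.0177), and Lmod2, which lengthens thin filaments, had 329.6, 417 and 297 CPM at P14, against 144, 185 and 162 CPM at P4 (1.07 ± 0.27, adjusted p = 0.0204). The Actc1 call was lost without P14 replicate 1 or 3 or without P4 replicate 2 or 3 (adjusted p from 0.0536 to 0.0776), and that of Lmod2 without P14 replicate 2 or without P4 replicate 1 or 3 (adjusted p from 0.0571 to 0.0955). Mybphl, an atrial relative of myosin-binding protein H, had 475, 428 and 501 CPM at P14, against 254, 238 and 155 CPM at P4 (1.14 ± 0.26, adjusted p = 0.0121). Its call was lost without P4 replicate 3 (adjusted p = 0.0704). Mybpc3, the cardiac myosin-binding protein C, had 263, 236 and 271 CPM at P14, against 536, 529 and 417 CPM at P4 (−0.94 ± 0.18, adjusted p = 0.00309). The M-band and Z-disc proteins Trim55 (−0.92 ± 0.21, adjusted p = 0.0124) and Fhl2 (−1.06 ± 0.30, adjusted p = 0.0368) were the other two of the 4 that fell, and neither these nor Mybpc3 (adjusted p = 0.0743) were called with equal upper quartiles. The Mybpc3 call held without any 1 library, that of Trim55 was lost without P4 replicate 3 (adjusted p = 0.0536), and that of Fhl2 without P14 replicate 1 or 3 or without P4 replicate 1, 2 or 3 (adjusted p from 0.079 to 0.169).

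Of 26 Z-disc and intercalated disc genes, 4 rose and 1 fell on the deposited scale (1.34% and 5.42% of all genes). With equal upper quartiles 5 rose (1.83% of all genes). Myoz2 (calsarcin-1), which ties calcineurin to the Z-disc, had 604, 650.3 and 739 CPM at P14, against 325, 279 and 302 CPM at P4 (1.13 ± 0.22, adjusted p = 0.00312), which held without any 1 library. Des (desmin) had 498, 601 and 517 CPM at P14, against 366, 295 and 289.7 CPM at P4 (0.77 ± 0.17, adjusted p = 0.0102). This call was lost without P14 replicate 2 (adjusted p = 0.0505). Tcap (telethonin) had 100.3, 118 and 108 CPM at P14, against 49.6, 48.6 and 61.5 CPM at P4 (1.02 ± 0.28, adjusted p = 0.0339). The call was lost without P14 replicate 1, 2 or 3 or without P4 replicate 1 or 2 (adjusted p from 0.0694 to 0.108). Pdlim5 differed by 0.60 ± 0.17 (adjusted p = 0.0331). Its call was lost without P14 replicate 1, 2 or 3 or without P4 replicate 2 or 3 (adjusted p from 0.0568 to 0.123). Cdh2 (N-cadherin) differed by −0.70 ± 0.19 (adjusted p = 0.0302), with an adjusted p of 0.373 at equal upper quartiles, and its call was lost without P14 replicate 1, 2 or 3 or without P4 replicate 1 or 2 (adjusted p from 0.0521 to 0.133). Without P14 replicate 2 the count of 4 became 1.

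In calcium handling, 2 of 27 genes rose and 1 fell on the deposited scale (1.34% and 5.42% of all genes), 3 rose and 1 fell with equal upper quartiles, and the list median was −0.32. Hrc, the histidine-rich calcium-binding protein of the sarcoplasmic reticulum, had 297, 249.9 and 264 CPM at P14, against 136, 104 and 78.6 CPM at P4 (1.37 ± 0.21, adjusted p = 0.000565). Dhrs7c, also a protein of that membrane, had 64.3, 107 and 85.8 CPM at P14, against 34.1, 36.0 and 14.0 CPM at P4 (1.66 ± 0.35, adjusted p = 0.00654). Camk2a, a calcium and calmodulin-dependent kinase, had 30.7, 39.6 and 23.0 CPM at P14, against 72.7, 85.5 and 143 CPM at P4 (−1.63 ± 0.28, adjusted p = 0.00148). These 3 calls held on both scales and without any 1 library.

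Among 37 potassium channel genes, 2 rose on the deposited scale (1.34% of all genes) and 3 with equal upper quartiles (1.83% of all genes). The list median was 0.27. Kcna1, a voltage-gated channel subunit better known from nerve, had 36.1, 61.5 and 55.2 CPM at P14, against 1.63, 9.11 and 1.72 CPM at P4 (3.605 ± 0.58, adjusted p = 0.000701), which held without any 1 library. Kcnj5 (GIRK4), a subunit of the atrial channel opened by acetylcholine, had 557, 1040.1 and 594 CPM at P14, against 427, 359 and 482 CPM at P4 (0.74 ± 0.22, adjusted p = 0.0453). This call was lost without P14 replicate 2 or 3 or without P4 replicate 1, 2 or 3 (adjusted p from 0.0511 to 0.254). Kcnip2, the accessory subunit of the transient outward channel, had 66.4, 106 and 72.5 CPM at P14, against 28.5, 18.1 and 15.1 CPM at P4 (1.96 ± 0.63) and did not pass on the deposited scale (adjusted p = 0.0626). Of 21 sodium channel and conduction genes, 1 rose and 2 fell on the deposited scale (1.34% and 5.42% of all genes), and 2 rose with equal upper quartiles. Cntn2, a cell adhesion gene of the conduction system, had 13.4, 86.1 and 5.17 CPM at P14, against 0.610, 4.29 and 1.29 CPM at P4 (2.88 ± 0.69, adjusted p = 0.0154), with P14 replicate 2 far above the others, and its call was lost without P14 replicate 2 or without P4 replicate 1 or 3 (adjusted p from 0.0525 to 0.103). Scn10a had 11.4, 25.6 and 5.17 CPM at P14, against 80.0, 96.9 and 61.1 CPM at P4 (−2.64 ± 0.68, adjusted p = 0.0223). The call was lost without P14 replicate 1 or 3 or without P4 replicate 1 or 2 (adjusted p from 0.0549 to 0.103). Gjc1 (connexin 45) differed by −0.94 ± 0.27 (adjusted p = 0.0417). Its call was lost without P14 replicate 1 or 3 or without P4 replicate 1, 2 or 3 (adjusted p from 0.0575 to 0.147). With equal upper quartiles neither Scn10a (adjusted p = 0.0542) nor Gjc1 (adjusted p = 0.203) was called.

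Calcium channel and signalling lists held few calls. Among 11 T-type and L-type channel genes Cacna1h fell on the deposited scale, where 5.42% of all genes did. Its 6 values show how. It had 4.53, 56.6 and 1.03 CPM at P14, against 48.0, 46.9 and 56.2 CPM at P4 (−2.57 ± 0.67, adjusted p = 0.0243). P14 replicate 2 stood with the P4 libraries and the other two P14 libraries far below them, and the call was lost without P14 replicate 1 or 3 or without P4 replicate 1, 2 or 3 (adjusted p from 0.0518 to 0.129) and with equal upper quartiles (adjusted p = 0.0518). Of 40 adrenergic, muscarinic and cAMP genes, 1 rose and 2 fell on the deposited scale, shares near the 1.34% and 5.42% of all genes. Rgs4, which shortens G protein signals (1.74 ± 0.41, adjusted p = 0.0126), rose. Prkar1a, a regulatory subunit of protein kinase A (−0.75 ± 0.17, adjusted p = 0.0121), and the phosphodiesterase gene Pde3b (−1.06 ± 0.25, adjusted p = 0.0148) fell on the deposited scale only. The Rgs4 call was lost without P14 replicate 1 or 3 or without P4 replicate 3 (adjusted p from 0.0557 to 0.0615), that of Prkar1a without P14 replicate 3 (adjusted p = 0.0508) and without P4 replicate 2 (adjusted p = 0.0593), and that of Pde3b without P14 replicate 2 (adjusted p = 0.0524).

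Genes of atrial identity and of the secreted peptides held few calls. Of 21 tested, 1 rose on the deposited scale (1.34% of all genes) and 2 with equal upper quartiles (1.83% of all genes). The list median was 0.08. Nppb, the gene of brain natriuretic peptide, had 270.1, 221 and 283 CPM at P14, against 72.1, 50.6 and 13.6 CPM at P4 (2.76 ± 0.68, adjusted p = 0.0167). This call was lost without P14 replicate 1 or 3 or without P4 replicate 3 (adjusted p from 0.0546 to 0.0959) and not made by edgeR (adjusted p = 0.0513). Nppa had 1379.7, 851 and 1453 CPM at P14, against 1161, 1164 and 449.6 CPM at P4 (0.50 ± 0.59, adjusted p = 0.684), and P4 replicate 3 was its lowest library. Bmp10, a secreted ligand of atrial muscle, had 1354, 1013 and 1148 CPM at P14, against 280.4, 544 and 622 CPM at P4 (1.35 ± 0.50, adjusted p = 0.106), with no overlap between the ages. Gja5 (connexin 40) had 260.2, 197 and 242 CPM at P14, against 680.0, 689 and 642 CPM at P4 (−1.53 ± 0.63, adjusted p = 0.149), also with no overlap and also not called. The cardiac transcription factor gene Nkx2-5 had 18.3, 11.1 and 13.7 CPM at P14, against 22.1, 43.4 and 13.8 CPM at P4 (−0.71 ± 0.53, adjusted p = 0.472). The SEs of Bmp10 and Gja5, 0.50 and 0.63 log2 units, come from the spread over all 18 libraries of both tissues. In a limma fit of the 6 RA libraries alone, Gja5 was called as lower (adjusted p = 0.00125) and Bmp10 as higher (adjusted p = 0.0217), while edgeR and DESeq2 called neither.

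Some genes close to absent at P4 had clear levels at P14. The largest rise among genes called without overlap and with at least 10 CPM in the higher group was that of Hamp, which encodes hepcidin, the hormone that limits iron release from cells by acting on ferroportin. Hamp had 112, 278 and 123 CPM at P14, against 1.12, 0 and 0 CPM at P4, a difference of 6.94 ± 0.52 on the log2(CPM + 1) scale (adjusted p = 3.41e-08). It had no read in any of the E14.5 libraries, where a count of 0 allows up to 3 reads. Its relative Hamp2 had 8.62, 9.98 and 5.76 CPM at P14, against 0.712, 0.419 and 0 CPM at P4 (2.73 ± 0.45, adjusted p = 0.000799). The reads of such close relatives may have been assigned to either. Both calls held on both scales and without any 1 library. Of 17 iron genes, 3 rose and 1 fell on the deposited scale (1.34% and 5.42% of all genes). With equal upper quartiles 4 and 1 did (1.83% and 1.5% of all genes). Cp (ceruloplasmin), a ferroxidase, had 112, 124 and 138 CPM at P14, against 22.3, 60.8 and 49.5 CPM at P4 (1.59 ± 0.41, adjusted p = 0.0218). The call was lost without P14 replicate 1, 2 or 3 or without P4 replicate 1 (adjusted p from 0.0518 to 0.108). Heph (hephaestin), the membrane ferroxidase, moved the other way, with 21.5, 16.8 and 14.5 CPM at P14, against 63.1, 61.5 and 83.3 CPM at P4 (−1.92 ± 0.41, adjusted p = 0.00722).

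The promoters of both hepcidin genes are shown side by side, since both rose. These bases lie before the transcription start, so their likeness cannot show whether reads were shared, and the transcripts were not compared. They are RefSeq sequence on build GRCm38.p6, 250 bases before the start, at chr7:30944030-30944279 (Hamp) and chr7:30924182-30924431 (Hamp2), both on the minus strand. Aligned, 227 of 247 letters (91.9%) were the same. GGCGCC, the core of the element through which bone morphogenetic proteins act on hepcidin in liver, is its own reverse complement. It occurs once in the Hamp window, 109 bases before the start and in capitals, and these letters are not in the Hamp2 window. The same letters occur in 2931 of 27025 genes (10.8%).
Hamp: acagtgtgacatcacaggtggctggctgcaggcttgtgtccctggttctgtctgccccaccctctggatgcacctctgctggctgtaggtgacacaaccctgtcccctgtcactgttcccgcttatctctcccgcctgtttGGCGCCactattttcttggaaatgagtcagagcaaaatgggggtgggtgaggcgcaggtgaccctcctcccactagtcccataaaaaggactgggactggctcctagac
Hamp2: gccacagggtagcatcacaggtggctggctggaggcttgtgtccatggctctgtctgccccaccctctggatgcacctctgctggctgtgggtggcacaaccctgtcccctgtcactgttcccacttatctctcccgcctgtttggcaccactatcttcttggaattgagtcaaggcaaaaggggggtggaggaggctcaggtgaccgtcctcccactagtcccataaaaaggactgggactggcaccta

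Other genes of the 12 largest rises had like patterns. Ptprt, a receptor tyrosine phosphatase, had 55.3, 71.4 and 68.7 CPM at P14, against 1.12, 4.09 and 0.215 CPM at P4 (4.80 ± 0.62, adjusted p = 9.07e-05). Hr (hairless), a nuclear corepressor, had 30.5, 40.7 and 29.8 CPM at P14, against 1.93, 0.314 and 3.01 CPM at P4 (3.79 ± 0.59, adjusted p = 0.000565). Ces1d, a carboxylesterase that hydrolyses triglycerides, had 122, 190.2 and 140.3 CPM at P14, against 10.4, 11.3 and 17.4 CPM at P4 (3.44 ± 0.48, adjusted p = 0.000209). Lgals3 (galectin-3) had 45.6, 68.7 and 41.2 CPM at P14, against 1.53, 7.12 and 3.66 CPM at P4 (3.49 ± 0.60, adjusted p = 0.00126). In each of these genes the lowest P14 library was several times the highest P4 library. These genes were chosen for large differences without overlap, so such a separation follows in part from the choice. Lsamp, a cell adhesion gene (3.73 ± 0.59), Myh14, a nonmuscle myosin (3.59 ± 0.49), the matrix genes Cilp2 (4.502 ± 0.59) and Pcolce2 (3.67 ± 0.57), and Lrat, which esterifies retinol (3.68 ± 0.97), complete the 12 together with Kcna1 and Col4a4, which stand under their lists. The Lrat call was lost without P14 replicate 2 or 3 or without P4 replicate 1, 2 or 3 (adjusted p from 0.0535 to 0.0781), while those of the other 11 held without any 1 library.

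**Figure D3:**
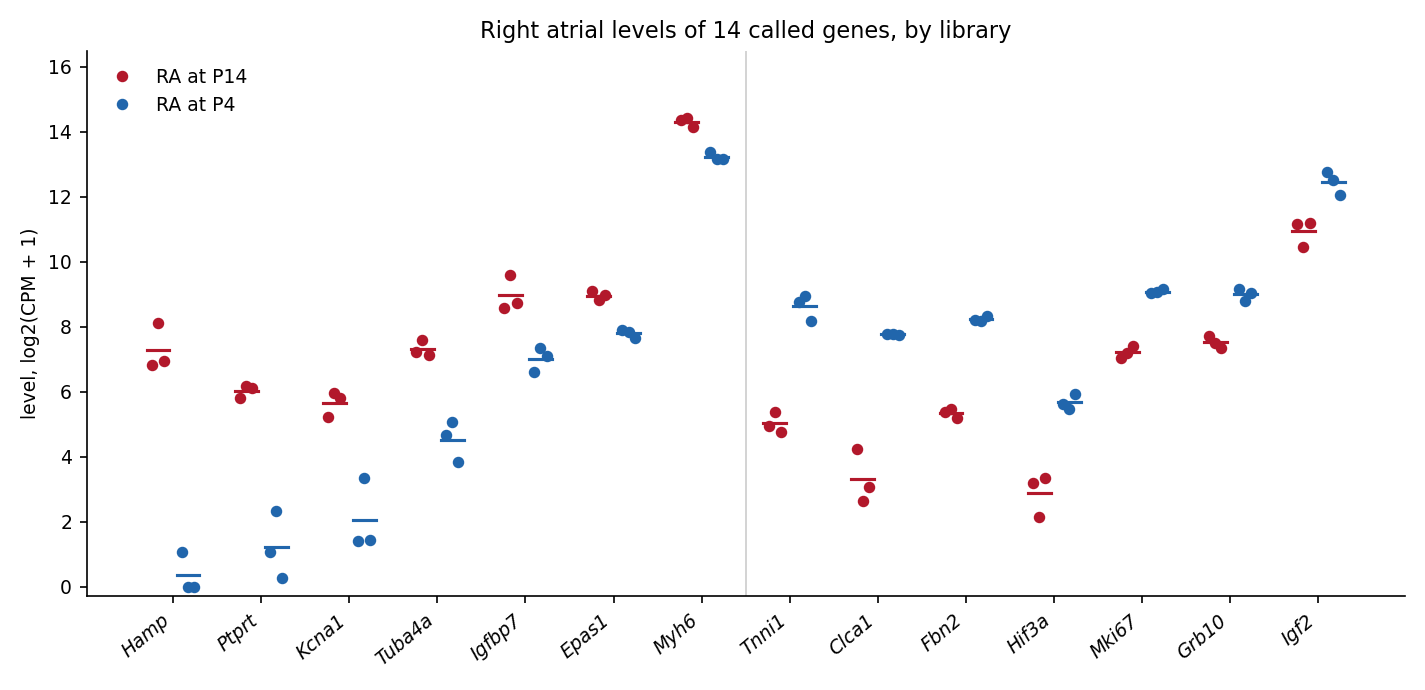
Levels of 14 called genes in the right atrial libraries, as log2(CPM + 1), with 3 points per age and a bar at the mean, 7 genes higher at P14 on the left and 7 lower on the right. Hamp lies at 112 to 278 CPM at P14 and at 0 to 1.12 CPM at P4, and Tnni1 at 26.1 to 40.7 CPM at P14 and at 286 to 495 CPM at P4.

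The largest fall by the same conditions was that of Clca1, which encodes a secreted regulator of calcium-activated chloride channels. It had 17.8, 5.17 and 7.38 CPM at P14, against 217, 219 and 215 CPM at P4 (−4.46 ± 0.53, adjusted p = 2.78e-05), so that 3 low and spread P14 libraries stood against 3 nearly equal P4 libraries. Efnb3 (ephrin B3) had 2.34, 2.76 and 0.738 CPM at P14, against 27.9, 41.2 and 12.1 CPM at P4 (−3.17 ± 0.49, adjusted p = 0.000552). Stbd1, a glycogen-binding protein, had 0.146, 0.0892 and 0.886 CPM at P14, against 3.36, 17.2 and 15.3 CPM at P4 (−3.03 ± 0.58, adjusted p = 0.00312). Nov (CCN3), a matricellular protein, had a peak at P4, with 0.354 ± 0.0153 CPM at E14.5, 146 ± 32.7 CPM at P4 and 18.1 ± 3.03 CPM at P14 (SD, n = 3 each; −2.94 ± 0.61 for P14 minus P4, adjusted p = 0.00531). Ntrk3, the receptor of neurotrophin 3 (−3.42 ± 0.71), St8sia1, a ganglioside synthase (−3.28 ± 0.59), Tmeff1 (−3.07 ± 0.54), Col11a1 (−3.06 ± 0.55) and Thbs4 (thrombospondin 4; −3.27 ± 0.62) complete the 12 with Tnni1, Kif14 and Myh8. The calls of all 12 held on both scales and without any 1 library, and St8sia1 (adjusted p = 0.110) and Thbs4 (adjusted p = 0.0655) were not called by edgeR.

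Of 17 hypoxia genes tested, 1 rose and 2 fell on the deposited scale, of which Pdk1 stands above, and 1 rose and 1 fell with equal upper quartiles. Of all genes, 1.34% rose and 5.42% fell on the deposited scale. Epas1, which encodes the endothelial hypoxia-inducible factor HIF-2 alpha, had 546, 454 and 499 CPM at P14, against 237, 229.6 and 199 CPM at P4 (1.17 ± 0.21, adjusted p = 0.00196). Hif3a, of the same family, had 8.18, 3.39 and 9.16 CPM at P14, against 48.3, 43.7 and 59.8 CPM at P4 (−2.79 ± 0.41, adjusted p = 0.000392), after 473 ± 185 CPM at E14.5. Both calls held on both scales and without any 1 library, while Hif1a had 163, 82.9 and 136 CPM at P14, against 192, 194 and 186 CPM at P4 (−0.63 ± 0.22) and did not pass (adjusted p = 0.0823).

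Of 22 nuclear receptors and coactivators of maturation, 3 rose on either scale (1.34% of all genes on the deposited scale and 1.83% with equal upper quartiles). Thrb, the beta receptor of thyroid hormone, had 27.2, 37.2 and 34.9 CPM at P14, against 12.7, 4.92 and 2.80 CPM at P4 (2.32 ± 0.59, adjusted p = 0.0201). Dio2, which activates thyroid hormone, had 10.8, 34.7 and 10.8 CPM at P14, against 3.05, 4.61 and 0 CPM at P4 (2.59 ± 0.72, adjusted p = 0.0335). Ppargc1b, a coactivator of mitochondrial genes, had 34.2, 54.4 and 31.6 CPM at P14, against 15.4, 16.2 and 11.0 CPM at P4 (1.41 ± 0.32, adjusted p = 0.0110). Neither edgeR (adjusted p = 0.0776) nor DESeq2 (adjusted p = 0.0556) called Dio2. The Ppargc1b call was lost without P14 replicate 2 (adjusted p = 0.0651), that of Thrb without P14 replicate 2 or 3 or without P4 replicate 2 or 3 (adjusted p from 0.0585 to 0.091) and that of Dio2 without P14 replicate 1, 2 or 3 or without P4 replicate 3 (adjusted p from 0.0505 to 0.159), so that without P14 replicate 2 the list held 0 calls, where 3093 genes of the whole table had an unadjusted p under 0.05.

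Immediate early and heat shock genes, which can follow handling of tissue as well as signals in the animal, had a median of 0.69 over 22 genes. On the deposited scale 4 rose (1.34% of all genes) and with equal upper quartiles 5 did (1.83% of all genes). Egr1 had 187, 285 and 217 CPM at P14, against 30.4, 89.7 and 61.5 CPM at P4 (2.01 ± 0.47, adjusted p = 0.0126) and Dusp1, a phosphatase that ends MAP kinase signals, had 147, 289.6 and 139 CPM at P14, against 36.5, 61.3 and 64.1 CPM at P4 (1.77 ± 0.35, adjusted p = 0.00424). Btg2, an antiproliferative gene of the list (1.69 ± 0.30), and Cyr61, a matricellular one (1.91 ± 0.43), were the others. P14 replicate 2 was the highest library in all 4, and without it Egr1 (adjusted p = 0.0604) and Cyr61 (adjusted p = 0.0682) were not called, nor was Egr1 without P4 replicate 1 (adjusted p = 0.0636). The part of tissue handling in these values was not tested.

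Matrix genes moved in both directions. Of 41 fibrillar matrix and crosslinking genes, 6 rose and 4 fell on the deposited scale (1.34% and 5.42% of all genes). With equal upper quartiles 7 and 3 did (1.83% and 1.5% of all genes). Fbn2, the fibrillin of fetal microfibrils, had 40.9, 43.0 and 35.9 CPM at P14, against 297, 291 and 321 CPM at P4 (−2.90 ± 0.18, adjusted p = 1.75e-09), among the most even differences of the comparison. Postn (periostin) had 1405, 1503 and 1464 CPM at P14, against 3129.8, 6102 and 6212 CPM at P4 (−1.75 ± 0.41, adjusted p = 0.0121), a call lost without P4 replicate 2 (adjusted p = 0.053) and without P4 replicate 3 (adjusted p = 0.0589), and Tnc (tenascin C) had 94.6, 127 and 73.2 CPM at P14, against 353, 745 and 564 CPM at P4 (−2.45 ± 0.63, adjusted p = 0.0223). Its call was lost without P14 replicate 1 or 3 or without P4 replicate 2 or 3 (adjusted p from 0.0589 to 0.0841) and with equal upper quartiles (adjusted p = 0.0554). Col8a1 had 15.2, 20.7 and 18.8 CPM at P14, against 1.22, 2.93 and 0 CPM at P4 (3.21 ± 0.56, adjusted p = 0.00152), and Plod1, a lysyl hydroxylase of collagen, had 133, 138 and 131 CPM at P14, against 62.6, 64.5 and 17.001 CPM at P4 (1.68 ± 0.34, adjusted p = 0.00488). The calls of Fbn2, Col8a1 and Plod1 held on both scales and without any 1 library. Without P4 replicate 1 the 6 became 2, without P14 replicate 3 they became 3 and without P4 replicate 3 they became 4, while the 4 became 2 without P4 replicate 2 or replicate 3.

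Among 28 basement membrane and adhesion genes, 3 rose and 2 fell on the deposited scale (1.34% and 5.42% of all genes). With equal upper quartiles 5 rose (1.83% of all genes). Col4a4 had 50.7, 27.2 and 60.1 CPM at P14, against 1.83, 3.35 and 3.44 CPM at P4 (3.56 ± 0.47, adjusted p = 0.000116) and Col4a3 had 47.2, 35.7 and 54.2 CPM at P14, against 0.509, 5.34 and 17.2 CPM at P4 (3.04 ± 0.62, adjusted p = 0.00456). These genes encode the alpha 4 and alpha 3 chains of collagen IV, which assemble with each other. Both calls held on both scales and without any 1 library. Sgca (alpha-sarcoglycan), of the dystrophin complex, had 32.6, 39.6 and 33.5 CPM at P14, against 17.6, 9.74 and 11.4 CPM at P4 (1.42 ± 0.35, adjusted p = 0.0163). This call was lost without P14 replicate 2 or without P4 replicate 2 or 3 (adjusted p from 0.0511 to 0.0709). Itga6, a laminin receptor subunit, had 195, 189 and 223 CPM at P14, against 336, 398 and 492 CPM at P4 (−0.997 ± 0.22, adjusted p = 0.00754) and was not called with equal upper quartiles (adjusted p = 0.0561), and neither was Itgb1 (−0.58 ± 0.16, adjusted p = 0.0279 on the deposited scale), its partner subunit. The Itgb1 call was lost without P14 replicate 1 or 3 or without P4 replicate 2 or 3 (adjusted p from 0.0692 to 0.0839).

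In the list of 41 BMP, TGF-beta, Wnt and Notch genes, 3 fell on the deposited scale, a share near the 5.42% of all genes, and 1 rose and 1 fell with equal upper quartiles. Of the 3, Bmp7 fell on both scales and without any 1 library, with 1.75, 0 and 0 CPM at P14, against 12.8, 6.18 and 10.5 CPM at P4 (−2.90 ± 0.41, adjusted p = 0.000249), after 136 ± 6.11 CPM at E14.5. Bmp5 (−1.92 ± 0.55) and Bmp2 (−1.51 ± 0.45) were the others, and neither was called with equal upper quartiles (adjusted p = 0.0943 and 0.109). The Bmp5 call was lost without P14 replicate 1 or 3 or without P4 replicate 1, 2 or 3 (adjusted p from 0.07 to 0.126), and that of Bmp2 without P14 replicate 1, 2 or 3 or without P4 replicate 2 or 3 (adjusted p from 0.0776 to 0.222).

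Of 34 cytosolic ribosomal protein genes 2 fell on the deposited scale, a share near the 5.42% of all genes, and neither was called with equal upper quartiles (Rps18 adjusted p = 0.178, Rps20 adjusted p = 0.150). The 2 genes were Rps18 (−1.11 ± 0.33) and Rps20 (−1.22 ± 0.32), and the list median was −0.59, against −0.24 for all genes. The list median was −0.31 with equal upper quartiles, against −0.02. Of 20 genes of translation and ribosome biogenesis 4 fell on the deposited scale (5.42% of all genes), namely Eef1a1, Ncl, Npm1 and Nop58. Eef1a1, the elongation factor, had 1716, 1526 and 1731 CPM at P14, against 3009.5, 3195 and 2729 CPM at P4 (−0.84 ± 0.13, adjusted p = 0.000565). None of these 4 was called with equal upper quartiles, where Eef1a1 had an adjusted p of 0.0879, while edgeR called Eef1a1 (adjusted p = 0.0309). The calls of Eef1a1 and Npm1 held without any 1 library. The Rps18 call was lost without P14 replicate 1 or 3 or without P4 replicate 1 or 2 (adjusted p from 0.0825 to 0.165) and that of Rps20 without P14 replicate 2 (adjusted p = 0.152) and without P4 replicate 2 (adjusted p = 0.12). The Ncl call was lost without P14 replicate 1, 2 or 3 or without P4 replicate 1, 2 or 3 (adjusted p from 0.0553 to 0.106) and that of Nop58 without P14 replicate 1, 2 or 3 or without P4 replicate 2 or 3 (adjusted p from 0.0782 to 0.157). The ribosomal count of 2 became 10 without P4 replicate 3 and 4 without P4 replicate 1.

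Lists with no call on the deposited scale were those of natriuretic peptide receptors, ketone and lactate use, the circadian clock, MHC presentation and interferon-stimulated genes. In limma the members at an unadjusted p under 0.05 were 2 of 8, 2 of 9, 6 of 18, 3 of 16 and 5 of 23 in that order of lists. With equal upper quartiles 1 gene of ketone and lactate use rose. In edgeR 1, 2, 1, 0 and 0 passed the adjusted threshold, and in DESeq2 1, 2, 3, 0 and 2.

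Markers of other cell types bear on these values, since the captured wall holds more than muscle. Of 22 fibroblast markers 4 rose on either scale (1.34% of all genes on the deposited scale and 1.83% with equal upper quartiles). Gsn (gelsolin), an actin-severing protein, had 198, 250.4 and 339 CPM at P14, against 38.05, 92.7 and 71.2 CPM at P4 (2.00 ± 0.26, adjusted p = 7.88e-05), Thy1 had 27.2, 17.5 and 37.8 CPM at P14, against 1.73, 3.25 and 3.23 CPM at P4 (2.90 ± 0.47, adjusted p = 0.000777), and Prelp had 30.7, 32.1 and 31.0 CPM at P14, against 9.05, 9.01 and 5.596 CPM at P4 (1.89 ± 0.38, adjusted p = 0.00454). The summed level of the fibroblast list was 9909 to 12567 CPM at P14 and 6092 to 13235 CPM at P4, and these ranges overlapped. A mean over the list that weights its genes equally, as log2(CPM + 1) above the mean of all genes tested, was 3.21 to 3.53 at P14 and 1.95 to 3.00 at P4, without overlap. The matrix changes above were not tested against a change in the share of fibroblasts. Of 22 endothelial markers, Aqp1, a water channel of small vessels, had 64.7, 41.2 and 73.8 CPM at P14, against 18.6, 12.6 and 8.18 CPM at P4 (2.14 ± 0.30, adjusted p = 0.000272), and Sox17 (1.88 ± 0.57) rose as well on the deposited scale, and 3 markers rose with equal upper quartiles. The endothelial sums were 2674 to 3274 CPM at P14 and 2237 to 2889 CPM at P4, and the equally weighted mean was 2.45 to 2.64 at P14 and 1.82 to 1.97 at P4, with every P14 library above every P4 library. The Sox17 call was lost without P14 replicate 1, 2 or 3 or without P4 replicate 1 or 2 (adjusted p from 0.0536 to 0.156) and in edgeR (adjusted p = 0.0625).

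Smooth muscle and pericyte markers summed to 1698 to 2047 CPM at P14 and 1059 to 1793 CPM at P4, and their equally weighted mean was 1.44 to 1.82 at P14 and 0.67 to 1.18 at P4, without overlap, with 3 of 15 genes higher (Myh11, Mylk and Des) and 1 lower (Cnn1) on the deposited scale. With equal upper quartiles 3 were higher and Cnn1 was not called (adjusted p = 0.0543). Of all genes, 1.34% rose and 5.42% fell on the deposited scale, and 1.83% rose with equal upper quartiles. Myh11, the smooth muscle myosin, had 68.8, 28.2 and 24.7 CPM at P14, against 2.14, 0.524 and 10.1 CPM at P4 (3.31 ± 0.90, adjusted p = 0.0296), a call lost without P14 replicate 1, 2 or 3 or without P4 replicate 1 or 2 (adjusted p from 0.0504 to 0.127), while Cnn1 (calponin) had 4.23, 0.535 and 2.66 CPM at P14, against 37.8, 15.3 and 7.96 CPM at P4 (−2.53 ± 0.64, adjusted p = 0.0203). The call was lost without P14 replicate 2 (adjusted p = 0.109) and without P4 replicate 1 (adjusted p = 0.0946). Mylk, a myosin light chain kinase, differed by 1.59 ± 0.46 (adjusted p = 0.0403), a call lost without P14 replicate 1 or 3 or without P4 replicate 1, 2 or 3 (adjusted p from 0.0564 to 0.163). Epicardial and mesothelial markers summed to 177 to 424 CPM at P14 and 242 to 526 CPM at P4. Their median difference was 1.11 over 18 genes, yet only Tbx18, which is also a gene of the node, passed, as a fall, with 17.7, 27.8 and 26.4 CPM at P14, against 64.8, 91.4 and 83.1 CPM at P4 (−1.71 ± 0.24, adjusted p = 0.000222). Among 25 macrophage and leukocyte markers Lyz2 (lysozyme) rose, with 69.7, 79.3 and 84.8 CPM at P14, against 16.48, 37.9 and 28.8 CPM at P4 (1.53 ± 0.39, adjusted p = 0.0204), a call lost without P14 replicate 2 or 3 or without P4 replicate 1 (adjusted p from 0.0632 to 0.0918), and the sums were 364 to 499 CPM at P14 and 336 to 486 CPM at P4. Mast cell markers summed to 31.6 to 57.0 CPM at P14 and 93.4 to 147 CPM at P4. This sum is almost wholly Kit (29.9, 22.7 and 45.6 CPM at P14, against 120.1, 98.9 and 91.7 CPM at P4), since Cpa3, Mcpt4, Cma1, Tpsb2 and Tpsab1 were at 0 in all 6 libraries. Kit was called as lower on the deposited scale only (adjusted p = 0.0237), and its call was lost without P14 replicate 1 or 2 or without P4 replicate 1, 2 or 3 (adjusted p from 0.0516 to 0.105).

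**Figure D4:**
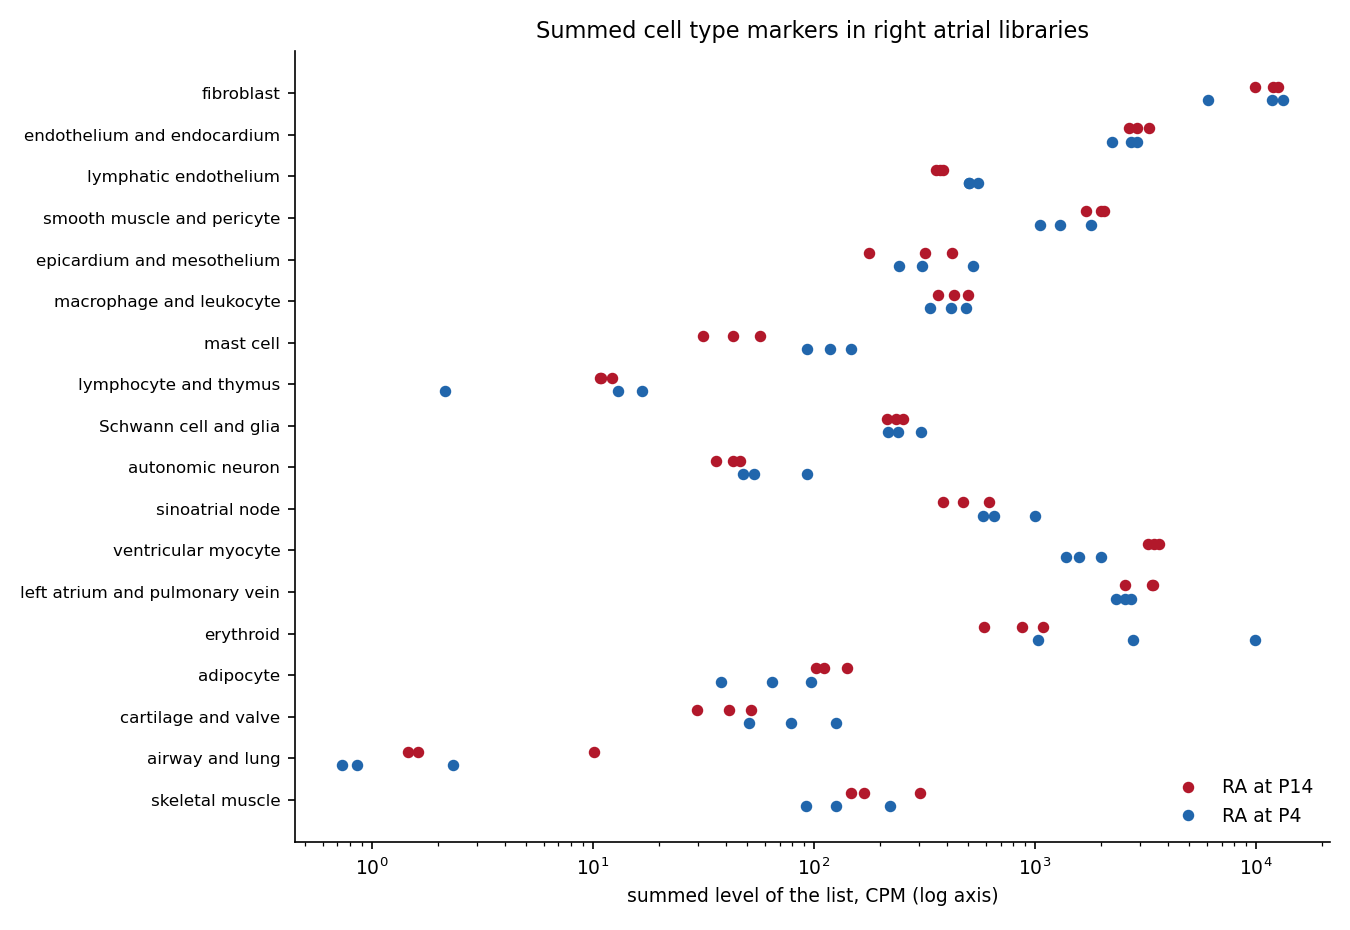
Summed level of each marker list in CPM on a log axis, with 1 point per right atrial library, P14 above P4 within each list. Erythroid markers lie at 588 to 1086 CPM at P14 and at 1032 to 9883 CPM at P4.

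Erythroid markers summed to 588 to 1086 CPM at P14 and 1032 to 9883 CPM at P4, highest in P4 replicate 2. They are mostly hemoglobin transcripts, and none of the 13 tested was called in limma, edgeR or DESeq2, with 4 at an unadjusted p under 0.05 in limma. Without P4 replicate 1, the P4 library with the lowest sum, limma called 4 of them as lower. With all libraries, lymphatic endothelial, lymphocyte, adipocyte and airway markers also had no call in limma. Of these, 1 of 7, 1 of 5, 0 of 5 and 0 of 1 were at an unadjusted p under 0.05, and DESeq2 called 1 lymphocyte gene. In the glial list Cdh19 rose (2.21 ± 0.50, adjusted p = 0.0111). Its call was lost without P14 replicate 3 (adjusted p = 0.0549). In the neuronal list Ddah1 fell (−2.17 ± 0.53, adjusted p = 0.0163). This call was lost without P14 replicate 2 (adjusted p = 0.104) and without P4 replicate 3 (adjusted p = 0.0989) and in edgeR (adjusted p = 0.0525). Cartilage and valve markers summed to 29.7 to 52.0 CPM at P14 and 51.1 to 126 CPM at P4, with Col11a1 lower. Of 10 skeletal muscle markers 2 fell on the deposited scale (5.42% of all genes), both near 0 at P14, and 1 with equal upper quartiles (1.5%). They were Pvalb with 0, 0 and 0 CPM at P14, against 1.32, 1.26 and 6.67 CPM at P4 and Myh2 with 0.438, 0 and 0.148 CPM at P14, against 2.44, 1.15 and 2.58 CPM at P4. The Pvalb call was lost without P4 replicate 3 (adjusted p = 0.0593) and in edgeR (adjusted p = 0.0615), and that of Myh2 without P14 replicate 1, 2 or 3 or without P4 replicate 1 or 3 (adjusted p from 0.0546 to 0.119) and with equal upper quartiles (adjusted p = 0.0743). Ventricular markers summed to 3264 to 3634 CPM at P14 and 1382 to 1995 CPM at P4, most of which was Myh7. Of the 8 tested only Myh7 was called, and the list median was −0.83. Their equally weighted mean was 0.48 to 1.43 at P14 and 0.56 to 1.42 at P4, with overlap. Myl2 had up to 5.40 CPM at P14 and up to 24.5 CPM at P4.

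Some genes of the complement system were called higher on either scale. Serping1, the C1 inhibitor, had 153, 183 and 169 CPM at P14, against 14.6, 60.4 and 43.0 CPM at P4 (2.28 ± 0.34, adjusted p = 0.000413), which held without any 1 library. C1ra had 8.62, 15.7 and 18.6 CPM at P14, against 2.34, 3.77 and 0.861 CPM at P4 (2.24 ± 0.57, adjusted p = 0.0211), a call lost without P14 replicate 2 or 3 or without P4 replicate 3 (adjusted p from 0.0697 to 0.0885). C4b was at 0 in all 3 P4 libraries and had 7.30, 0.178 and 12.1 CPM at P14, so no fold is given, and its call was lost without P14 replicate 1 or 3 or without P4 replicate 1, 2 or 3 (adjusted p from 0.0699 to 0.153).

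Genes that mark the node were low but not unchanged in the atrium. Of 16, 4 rose and 3 fell on either scale. Of all genes, 1.34% rose and 5.42% fell on the deposited scale, and 1.83% and 1.5% did with equal upper quartiles. Cntn2 and Rgs4, given above, were 2 of the 4. Tbx3, a repressor of the atrial programme, had 16.4, 29.4 and 13.7 CPM at P14, against 5.49, 3.88 and 15.1 CPM at P4 (1.31 ± 0.34, adjusted p = 0.0242), a call lost without P14 replicate 2 or without P4 replicate 1 or 2 (adjusted p from 0.0792 to 0.133). Smoc2, which is also in the fibroblast list, had 23.1, 37.2 and 23.6 CPM at P14, against 1.73, 9.22 and 20.2 CPM at P4 (1.75 ± 0.45, adjusted p = 0.0231), a call lost without P14 replicate 2 (adjusted p = 0.102) and without P4 replicate 1 (adjusted p = 0.0946) and in edgeR (adjusted p = 0.0501). Ntm (neurotrimin) had 13.7, 8.82 and 22.6 CPM at P14, against 61.3, 65.9 and 191 CPM at P4 (−2.62 ± 0.36, adjusted p = 0.000146) and Vsnl1, a neuronal calcium sensor, had 22.8, 30.2 and 17.4 CPM at P14, against 68.5, 54.3 and 49.1 CPM at P4 (−1.27 ± 0.22, adjusted p = 0.00142), and these 2 calls held without any 1 library. The summed level of the node list was 384 to 621 CPM in RA at P14 and 582 to 1002 CPM in RA at P4, against 5662 to 6086 CPM in SAN at P14 and 7380 to 12038 CPM in SAN at P4.

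The change between P4 and P14 was then compared with that in the node, to ask which genes changed differently in the working atrium. The difference of the changes, RA minus SAN, passed the limma threshold for 30 of 17568 genes (0.171%), 4 higher (0.0228%) and 26 lower (0.148%), and for 8 with equal upper quartiles. Within SAN, 5.59% of genes were called, 2.68% higher and 2.91% lower at P14. Leaving out 1 of the 12 libraries of the contrast left 9 to 18 calls, except that 188 genes were called without SAN P4 replicate 3. For Gja1 (connexin 43), the main gap junction protein of working muscle, the atrium had 359, 305 and 319 CPM at P14, against 454, 387 and 456 CPM at P4 (−0.40 ± 0.33), and the node had 44.2, 155 and 59.9 CPM at P14, against 7.52, 11.0 and 13.1 CPM at P4 (2.74 ± 0.33). The difference of the changes was −3.13 ± 0.46 (adjusted p = 0.00326), so the level rose in the node and did not pass the test in the atrium (adjusted p = 0.527).

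Ptprt rose in the atrium, as given above, while the node had 0, 0.533 and 0.160 CPM at P14, against 5.96, 6.71 and 1.57 CPM at P4 (−2.09 ± 0.62, adjusted p = 0.0520), and the difference of the changes was 6.89 ± 0.88 (adjusted p = 0.000883). Tuba4a, an alpha-tubulin, had 149, 191 and 138 CPM at P14, against 24.2, 32.5 and 13.3 CPM at P4 in the atrium (2.79 ± 0.28) and 143, 159.9 and 214 CPM at P14, against 196, 229 and 158 CPM at P4 in the node (−0.18 ± 0.28), a difference of 2.97 ± 0.40 (adjusted p = 0.00108). At P14 the ranges of the 2 tissues overlapped. Hamp rose in both tissues, and in the node it had 226, 456 and 135 CPM at P14, against 31.8, 86.3 and 60.7 CPM already at P4, so that the difference of the changes was 4.83 ± 0.73 (adjusted p = 0.00346). The calls of Gja1, Ptprt, Tuba4a and Hamp held in all 12 fits that left out 1 of the 12 RA and SAN libraries, with adjusted p up to 0.0136, 0.00427, 0.00829 and 0.0214, and for Hamp DESeq2 gave 0.0565.

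Other genes of the contrast were called by a narrow margin. Hspb8, a small heat shock protein of the Z-disc, had 121, 88.8 and 122 CPM at P14, against 35.4, 28.2 and 22.6 CPM at P4 in the atrium (1.92 ± 0.24, adjusted p = 5.46e-05) and differed in its change by 1.64 ± 0.34 (adjusted p = 0.0483). Ntrk3 (−4.89 ± 1.01), St8sia1 (−4.27 ± 0.84), Nov (−4.23 ± 0.86) and Nts (neurotensin; −4.14 ± 0.82) had the largest negative differences of the named genes, with adjusted p of 0.0483, 0.0395, 0.0483 and 0.0406. Nts itself had 2.48, 10.2 and 2.81 CPM at P14, against 13.2, 32.6 and 32.1 CPM at P4 in the atrium and 7.45, 4.66 and 16.48 CPM at P14, against 1.10, 1.90 and 1.65 CPM at P4 in the node. Within the atrium the Nts call (adjusted p = 0.0231) was lost without P14 replicate 1 or 3 or without P4 replicate 2 or 3 (adjusted p from 0.0781 to 0.0955), with equal upper quartiles (adjusted p = 0.0624) and in edgeR (adjusted p = 0.147). Fbn2 fell in both tissues, more in the atrium, with a difference of the changes of −1.26 ± 0.26 (adjusted p = 0.0483). The calls of these 6 genes were each lost in 8 to 11 of the 12 fits that left out 1 library, and with equal upper quartiles.

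**Figure D5:**
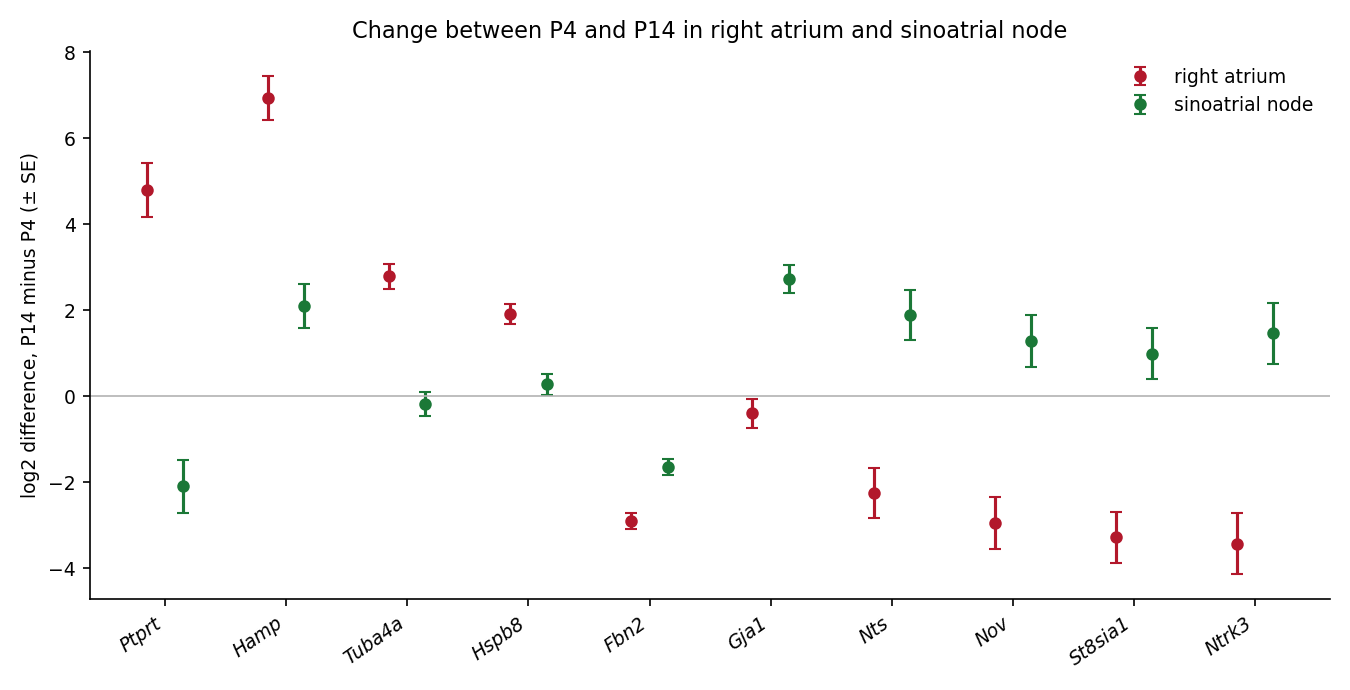
Difference between P14 and P4 in right atrium and in sinoatrial node, in log2 units with SE from the fit of 18 libraries, for the 10 named genes whose changes differed between the tissues. Gja1 lies near 0 in the atrium and at 2.74 in the node, and Ptprt lies at 4.80 in the atrium and at −2.09 in the node.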

How the data were processed

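Right atrium and sinoatrial node were laser-captured from mouse hearts at 3 stages, and total RNA was amplified and sequenced, per the labels' protocols. The submitters' processing notes name TopHat2 2.0.6, edgeR and the mouse build mm8, with no role given. The authors deposited 1 table of normalised signal per gene for 25 libraries. In the 18 RA and SAN libraries of 6 groups all values are whole multiples of a unit per library within 0.1 read (100%), so that whole reads were recovered. Deposited values divided by 1 constant for all libraries are given as CPM. Library depth runs from 5101711 to 17997497 reads over these 18.

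The test was limma 3.58.1 (R 4.3.3) with trend on log2(CPM + 1) over the 18 libraries, with 6 group means, genes of at least 1 CPM in at least 3 libraries, and a Benjamini-Hochberg adjusted p of 0.05. Fold changes on this scale understate those of low genes. All differences are P14 minus P4 in log2 units with SE, and every adjusted p is limma's with Benjamini-Hochberg adjustment unless edgeR or DESeq2 is named. The design table had named limma for normalised values. Alternatives were upper quartile, library total and sarcomere gene scaling, other filters and pseudocounts, library weights, a replicate block, edgeR 4.0.16 and DESeq2 1.42.0 on recovered reads, fewer libraries, and, chosen after seeing the data, a term for Xist-high libraries. The test was tried on simulated data first.

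The genes named are a fixed set of 12, the 12 largest called differences without overlap in each direction (at least 10 CPM in the higher group), up to 5 members of each list by smallest p, and the 4 largest differences between tissues in each direction. Igfbp6, Igf1, Trim55, Fhl2, Tnc and Tbx3 were named outside that rule, after their values were seen, to complete small counts, as were Myl2 and Xist as checks. Some results that the rule would name are not reported here. The genes, lists and tests were chosen with earlier results of these data known. P14 and P4 libraries differ in age, so their numbers cannot pair them within an animal, and same-numbered ones deviated with correlations of 0.01, −0.04 and −0.03. Same-numbered RA and SAN libraries had 0.04, 0.10 and 0.04 at P14 and −0.04, 0.02 and −0.06 at P4. Differently numbered ones had −0.09 to 0.07 at P14 and −0.07 to 0.11 at P4. The test between tissues treated RA and SAN libraries as independent, and whether some share an animal is not stated. Replicates of a group differed beyond counting noise. By chi-squared per degree of freedom the closest pair was RA replicates 1 and 3 at P14, at 8.82 (correlation 0.976). RA replicate 2 at P14 stood at 37.6 and 41.2 from them. Whether replicates 1 and 3 share an animal is not stated, and the fits treated them as independent. The allowance of up to 3 reads for a count of 0 covers counting error only, while SEs come from the spread between libraries.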

Additional observations from a re-analysis of the deposited data

Results flagged for a closer look

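The change between P4 and P14 differed between right atrium and sinoatrial node by the interaction test for the named genes below, each value being the change in RA minus the change in SAN in log2 units. Higher in RA were Ptprt at 6.89, Hamp at 4.83, Tuba4a at 2.97 and Hspb8 at 1.64. Lower in RA were Ntrk3 at −4.89, St8sia1 at −4.27, Nov at −4.23, Nts at −4.14, Gja1 at −3.13 and Fbn2 at −1.26. The differences of Ptprt, Hamp, Tuba4a and Gja1 passed the limma threshold in every one of the 12 fits that left out 1 library, and those of the other 6 genes were lost in 8 to 11 of them. What lies behind these differences was not tested.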

How the results depend on the processing

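The split between higher and lower genes depends on the scale. In place of 1188 calls in RA (236 higher and 952 lower), upper quartile scaling gave 585 (322 and 263), library total scaling 790 (298 and 492), sarcomere gene scaling 579 (216 and 363), edgeR 541 (310 and 231), DESeq2 1087 (599 and 488), the 6 RA libraries alone 652 (162 and 490) and library weights 3191 (530 and 2661). Leaving out 1 RA library at a time gave 630 to 899 calls, with 128 to 193 higher and 483 to 706 lower. The filters, the pseudocounts, the 9 RA libraries and the term for Xist-high libraries left these counts within 1.5 times. No pairing of same-numbered libraries is stated, and with the replicate block 1088 genes were called, 226 higher and 862 lower.

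For the difference between tissues, in place of 30 calls (4 higher and 26 lower), no filter gave 16 (11 lower), a pseudocount of 0.1 gave 12 (8 lower), a pseudocount of 5 gave 7 higher, library weights gave 11 higher, upper quartile scaling 8 (5 lower), edgeR 19 (10 higher and 9 lower) and DESeq2 113 (45 higher and 68 lower). The replicate block left 17 lower. Leaving out 1 library gave 9 to 188 calls, 3 to 28 higher and 6 to 160 lower, the most without SAN P4 replicate 3. The cause of these shifts was not tested.

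Of 148 named genes, upper quartile scaling took 29 across the threshold to the weaker side, edgeR 37 and DESeq2 28, and none of the 148 changed the sign of a called difference under any alternative run. With 3 libraries per group and 5101711 reads in the shallowest, genes near 1 CPM rest on few reads.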
